A study of Mus musculus with 2 samples.

Results

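The Phlda family is a small family of proteins built around a pleckstrin homology-like domain, and 3 mouse genes of it had probes on the arrays. TDAG51 (T cell death-associated gene 51), the gene deleted in the study, is listed there as Phlda1. The members were all probes, control spots excepted, that the scanner output names Phlda1, Phlda2 or Phlda3, which gave 3 of the 27666 genes or unnamed transcripts measured and 4 of 41174 probes, 1 for Phlda1, 2 for Phlda2 and 1 for Phlda3. Each had 1 spot on each array.

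Whole brain RNA of C57BL/6J dams, 8 weeks old and taken at postpartum day 0 (P0), was hybridized to 2 two-colour arrays on the same slide. By the source name and dye given for each channel, TDAG51-/- RNA was in Cy3 on both arrays. The genotype field of the labels lists the control genotype under the Cy3 channel too, so that the direction of every ratio rests on the source names. TDAG51+/+ RNA was in Cy5 on array 1, and on array 2 Cy5 held TDAG51-/-Tg2 RNA, from dams with the same deletion and a murine TDAG51 transgene under the BAI1-AP4 promoter, which is active mainly in cerebral cortex and hippocampus. TDAG51-/-Tg2 is a single transgenic line, so that an effect of the insertion site cannot be told apart from an effect of the transgene. The number of dams behind each sample, whether the TDAG51-/- RNA of the arrays was the same extract, which stretch of TDAG51 was deleted and whether the transgene carries the sequence of the probe are not given in the sources used here. Since each genotype pair was hybridized once and in 1 dye orientation, no test was possible, dye and genotype cannot be told apart, and all errors below are technical.

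Phlda1 is induced by T cell receptor signals, growth factors and cell stress, and its product has been linked to apoptosis and to lower protein synthesis. Phlda2 is an imprinted gene expressed from the maternal allele that restrains growth of the placenta. Phlda3 is a target of p53 whose product competes with the kinase Akt for membrane lipids. The shared domain of the family binds phosphoinositides.

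The Phlda1 and Phlda2 probes are shown by their last 30 of 60 bases, 5′ to 3′, because these define which transcript each value stands for. Capitals mark AATAAA, the common form of the hexamer that signals cleavage and polyadenylation of transcripts. Among these, only the Phlda2 probes held it, as did 4.78% of all probes, counted on the probe strand.
Phlda1: cacctaacgtaatggacctttgtaggaaca
Phlda2, probe A: tttataccatattttcattccaAATAAAca
Phlda2, probe B: attttcattccaAATAAAcaatgtcacttt

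On the mouse assembly mm7, the whole Phlda1 probe (NM_009344) lies at chr10:110970234-110970293 on the plus strand. The Phlda2 probes (NM_009434) lie on the minus strand at chr7:139928849-139928908 and chr7:139928839-139928898. They overlap by 50 bases and therefore read 1 target, not 2. Probes of different members shared no run longer than 6 bases. In the same orientation, no other probe on the array shared a run of at least 16 bases with the Phlda1 or the Phlda3 probe, whereas the Phlda2 probes shared one with a probe of Olfr908, an olfactory receptor gene. Exons and UTRs were not assigned, because no annotation of mm7 was used here.

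Phlda1 was bright in TDAG51+/+ and low or near background in the other 3 channels. Its mean spot intensity was 7283 in TDAG51+/+ and 350.5 in TDAG51-/- on array 1, over local backgrounds of 41.5 and 43.0. On array 2 it was 44.1 in TDAG51-/- and 50.5 in TDAG51-/-Tg2, over backgrounds of 45.0 and 42.0. Both channels of array 1 were well above background by the mark of the scanner software, and neither channel of array 2 was. The genotype labels of array 1 thus go with the Phlda1 signal, while those of array 2 could not be checked with it. After background correction and normalization, Phlda1 was 17.3-fold lower in TDAG51-/- than in TDAG51+/+ (log2 ratio -4.11, scanner error 0.46), and the 95% range from the error model of the scanner was 9.20-fold to 32.3-fold. That error covers the spot and not the spread between dams. At least 2-fold lower values were found for 4.42% of the 34576 probes detected on this array, that is, with 1 channel or both well above background, and 5 probes, Phlda1 among them, had a ratio as low as that of Phlda1. No fold is given for TDAG51-/- over TDAG51-/-Tg2, since both channels were near background.

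**Figure D1:**
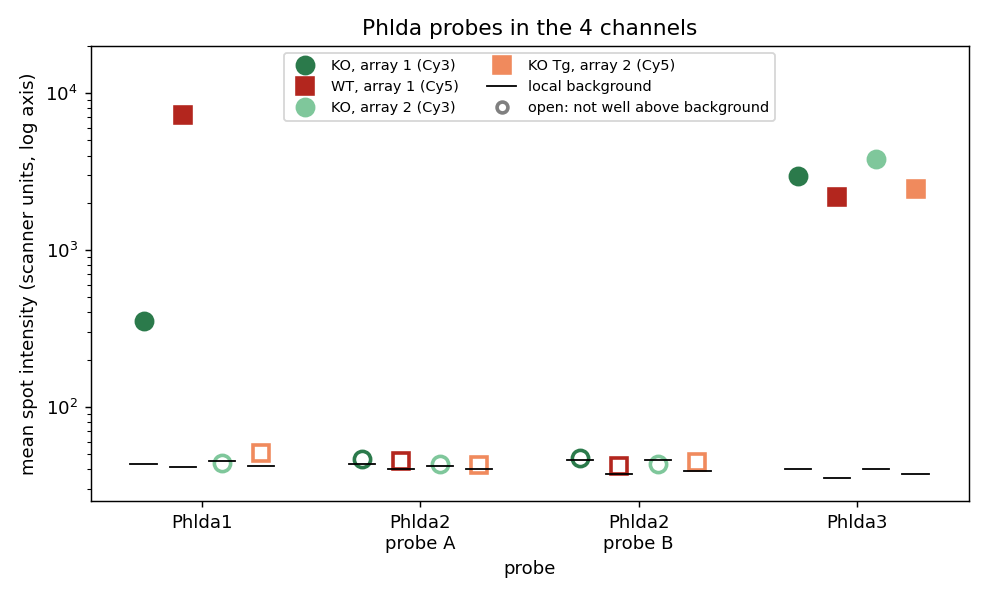
Mean spot intensity in scanner units (log axis) of the 4 Phlda probes in the 4 channels, with 1 spot per point, so that there is no error bar; short lines are the local background and open symbols are not well above it. Phlda1 stands at 7283 in TDAG51+/+ against 350.5, 44.1 and 50.5 elsewhere, both Phlda2 probes lie at background and Phlda3 is well above it in all channels.

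The Cy5 channels of the arrays were then set side by side after quantile normalization of the mean channel intensity (Aquantile), to compare TDAG51-/-Tg2 with TDAG51+/+. The normalized log2 level of Phlda1 was 12.74 in TDAG51+/+ and 5.98 in TDAG51-/-Tg2. With the dim side set to the lowest level called well above background in that channel, Phlda1 was at least 90.4-fold lower in TDAG51-/-Tg2. Of the 33381 probes detected in either Cy5 channel, 4.12% were at least 2-fold lower. Thus no signal from the transgene was seen with this probe, and its sequence may or may not be in the transgene. The construct of the paper joins the TDAG51 gene to an SV40 poly A signal. The paper examined transgene expression in the brain by RT-PCR and visualized TDAG51 there by immunofluorescence. The missing signal is therefore not a measure of whether this line expresses the transgene. The comparison runs across arrays, and the array and the genotype cannot be told apart in it.

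**Figure D2:**
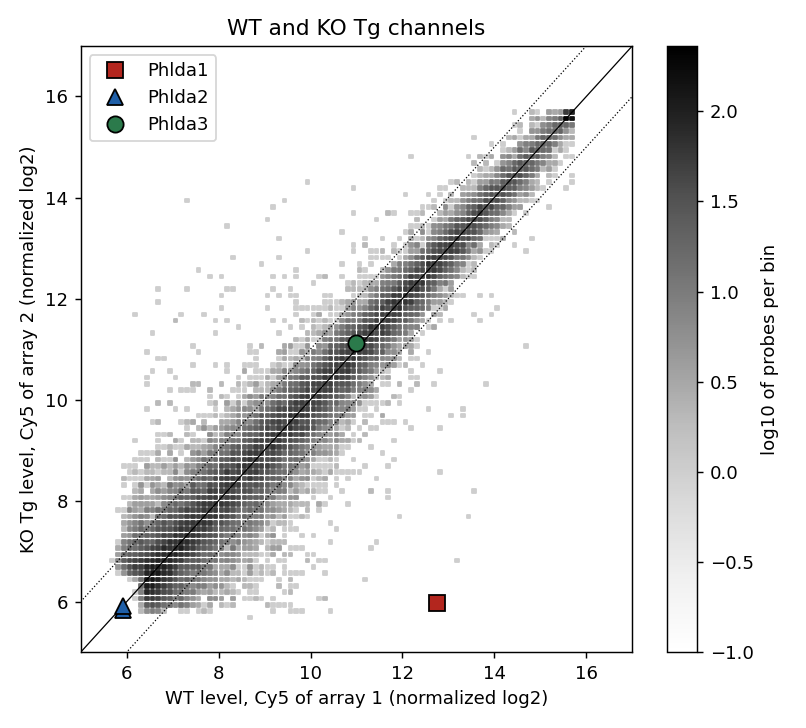
Normalized log2 level in Cy5 of TDAG51+/+ (array 1, x axis) against TDAG51-/-Tg2 (array 2, y axis); grey squares are bins of all probes, the solid line is equality and the dotted lines are 2-fold. Phlda1 lies far below the lines, at 12.74 and 5.98, Phlda3 lies on the diagonal and Phlda2 at its lower end.

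The TDAG51-/- channels of the arrays did not give the same value for Phlda1. Its normalized level was 8.64 on array 1 and 5.84 on array 2, which is at least 5.76-fold higher on array 1. Of the 34213 probes compared, 0.222% were at least 2-fold higher in TDAG51-/- on array 1. The 14 spots nearest to the Phlda1 spot had a median Cy3 intensity of 750.5 on array 1 and 792.0 on array 2, and a median Cy5 intensity of 832.5 and 829.6. Hba-a1, an alpha globin gene of red blood cells, moved the other way, with a TDAG51-/- intensity of 2259 on array 1 and 35469 on array 2. The erythroid genes Alas2 and Slc4a1 differed by only 0.08 and 0.07 (log2) between the TDAG51-/- channels. The part of these differences in the Phlda1 value was not tested. The 350.5 of TDAG51-/- on array 1 is thus a value of that array alone, and the 17.3-fold ratio rests on it.

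Phlda2 was not detected in any sample. Its probe A gave 46.4 in TDAG51-/- and 45.1 in TDAG51+/+ on array 1, and 42.8 in TDAG51-/- and 42.2 in TDAG51-/-Tg2 on array 2. Probe B gave 46.8 and 41.7 on array 1 and 43.4 and 44.4 on array 2. All 8 values lay close to local backgrounds of 37.0 to 46.0, none was well above background, and no fold is given. A difference in Phlda2 between the genotypes was not detectable at this signal.

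Phlda3 was well above background in every channel and was higher in TDAG51-/- than in the control on both arrays, by less than 2-fold. On array 1 the spot gave 2959 for TDAG51-/- and 2179 for TDAG51+/+. On array 2 it gave 3797 for TDAG51-/- and 2445 for TDAG51-/-Tg2. TDAG51-/- was the higher in both pairs, and no intensity of a control reached that of either TDAG51-/- channel. The ratio was 1.61-fold against TDAG51+/+ (log2 ratio 0.68, scanner error 0.21, 95% range 1.20-fold to 2.14-fold). It was 1.89-fold against TDAG51-/-Tg2 (log2 ratio 0.92, scanner error 0.22, 95% range 1.40-fold to 2.54-fold). A ratio as high or higher was found for 10.7% of the 34576 probes on array 1 and for 5.83% of the 33805 probes on array 2, so that the value of Phlda3 was not unusual for these arrays. The log2 ratios differed by 0.23, less than their combined scanner error of 0.31, and both contain the TDAG51-/- genotype in the same dye.

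In normalized levels, Phlda3 was ordered TDAG51-/- on array 2 (12.04), TDAG51-/- on array 1 (11.67), TDAG51-/-Tg2 (11.12) and TDAG51+/+ (10.99). The scanner error is that of a ratio within 1 array and does not cover a gap between arrays. TDAG51-/-Tg2 and TDAG51+/+ were 0.13 apart on the log2 scale. Of 33381 probes, 36.0% were as far or further apart on the same side. The TDAG51-/- channels were 0.37 apart, or 1.29-fold. Only 2.92% of 34213 probes had as large a gap between the TDAG51-/- channels on the same side. The ratio of Phlda3 against TDAG51+/+, 0.68, is to be read beside this gap between samples of 1 genotype.

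**Figure D3:**
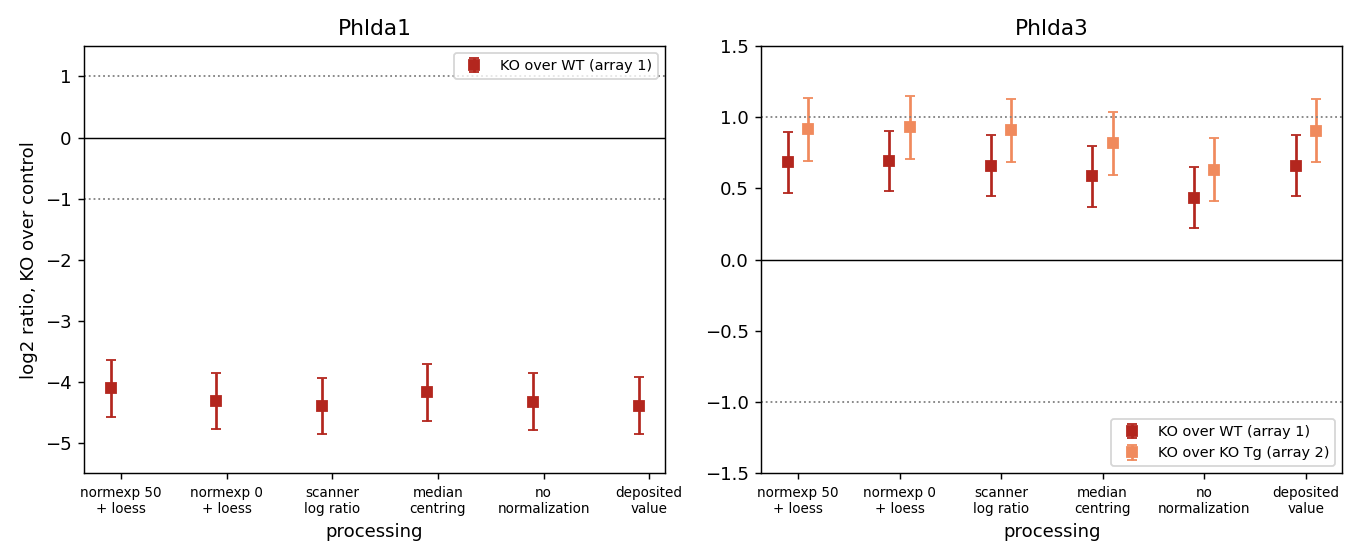
Log2 ratio of TDAG51-/- over the control for Phlda1 and Phlda3 under 6 ways of processing the same spots. Bars are 1 scanner error on each side, the same error for every way of processing, and dotted lines mark 2-fold. Phlda1 runs from -4.40 to -4.11, without a value on array 2, and Phlda3 stays above 0 and below 2-fold in all 6 ways.

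Markers of brain regions differed between TDAG51-/- and both controls. Over all probes, 4.9% were at least 2-fold higher and 4.42% lower against TDAG51+/+, and 4.73% and 3.85% against TDAG51-/-Tg2. Of the cerebellum markers, 8 of 10 were at least 2-fold higher in TDAG51-/- than in TDAG51+/+ (median log2 ratio 2.18), and 9 of 10 against TDAG51-/-Tg2 (2.03). Their summed intensity was 347961 and 358823 in the TDAG51-/- channels, 159650 in TDAG51+/+ and 159947 in TDAG51-/-Tg2. Of the detected hindbrain markers, 7 of 10 and 8 of 10 were higher (median 2.71 and 2.78), with sums of 17818 and 17165 against 13991 and 12550. Only Hoxb8 of that list was near background in all 4 channels. Of the striatum markers, 7 of 9 were at least 2-fold lower on each array (median -1.47 and -1.33), and their sums were 51151 and 49106 in TDAG51-/- against 178171 and 183625. Sums of the cortex and hippocampus markers were 52087 and 46850 against 127810 and 134159, and 3 of 10 and 4 of 10 were at least 2-fold lower. The part of this regional difference in the ratios of Phlda1 and Phlda3 was not tested. In bulk tissue, fewer cells that express a gene and less RNA per cell cannot be told apart.

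Among the cell types that Phlda genes could come from, the neuron list had no gene past 2-fold against TDAG51+/+. Against TDAG51-/-Tg2, 1 of 6 was lower, the synaptic vesicle gene Syt1 at -1.29, beside 3.85% of all probes. The astrocyte list had none against TDAG51+/+. Against TDAG51-/-Tg2, 1 of 6 was higher, the water channel gene Aqp4 at 1.28, beside 4.73% of all probes. Of the microglia markers, 1 of 6 (Csf1r) was at least 2-fold lower against TDAG51+/+, where 4.42% of all probes were, and 3 of 6 (C1qa, Cx3cr1 and Tmem119) against TDAG51-/-Tg2, where 3.85% were, with list medians of -0.72 and -1.01. Of the 6 T cell markers, the kinase gene Lck alone passed 2-fold, at -2.18 against TDAG51+/+, where 4.42% of all probes were lower. Cd3d, a chain of the T cell receptor complex, was near background in both controls. Some pituitary and blood markers set the controls apart. Of 6 pituitary markers, 1 was at least 2-fold higher against TDAG51+/+, beside 4.9% of all probes. Against TDAG51-/-Tg2, 2 were at least 2-fold lower, beside 3.85%. The list medians were 0.09 and -0.20, and the highest ratio against TDAG51-/-Tg2 was 0.84. The 2 lower ones, the hormone genes Prl and Gh, had log2 ratios of 0.13 and 0.05 against TDAG51+/+ and of -4.22 and -3.40 against TDAG51-/-Tg2. Of the blood markers, 2 of 4 (Hba-a1 and Alas2) were at least 2-fold lower in TDAG51-/- than in TDAG51+/+, beside 4.42% of all probes. Against TDAG51-/-Tg2, 3 of 4 (these and Slc4a1) were at least 2-fold higher, beside 4.73%. The part of these cell types in the Phlda values was not tested.

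Genes of the pathways around the family were read from 9 lists, each gene by its brightest probe. Their medians lay between -0.21 and 0.15 against TDAG51+/+ and between -0.21 and 0.15 against TDAG51-/-Tg2, beside medians of 0.01 and 0.02 over all probes. Without normalization all 9 medians were below 0 on both arrays, at -0.72 to -0.22 and -0.75 to -0.15, while the medians over all probes were -0.19 and -0.25. With median centring 9 and 8 of the 9 were below 0. Both comparisons share the TDAG51-/- genotype and its dye. Directions within the lists were therefore not read from the medians. Genes saturated in a control channel were kept in the medians and counts, although saturation makes their ratio inexact. Some genes counted as within 2-fold could therefore lie past it. Counts past 2-fold are to be read beside the shares of all probes. These were 4.9% higher and 4.42% lower against TDAG51+/+, and 4.73% and 3.85% against TDAG51-/-Tg2.

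Genes tied to Phlda1 itself, in cell death and translation, showed 0 of 6 past 2-fold against TDAG51+/+. Fas, the death receptor that TDAG51 was first linked to in T cells, was 0.62 lower on the log2 scale in TDAG51-/- than in TDAG51+/+, at intensities of 365.7 and 625.1. Against TDAG51-/-Tg2 it was 2.02-fold higher, at 359.2 and 197.2, and at least 2-fold higher values were found for 4.73% of probes on that array. The ratios of the ribosomal protein gene Rpl14 were -0.49 and -0.63, those of the translation initiation factor gene Eif3d were -0.32 and -0.28, and those of the poly(A)-binding protein gene Pabpc4 were -0.11 and -0.04.

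The list with the most genes past 2-fold was that of growth factor and ERK-induced genes, in which 3 of 22 were lower against TDAG51+/+ and 4 of 22 against TDAG51-/-Tg2, beside 4.42% and 3.85% of all probes, and none was 2-fold higher. Phlda1 is itself a gene of this kind. Egr3, an immediate early transcription factor, had an intensity of 2760 in TDAG51-/- and 14877 in TDAG51+/+, and of 2638 in TDAG51-/- and 18472 in TDAG51-/-Tg2, which gave log2 ratios of -2.05 and -2.39. Those of its relative Egr2 were -1.66 and -1.36, and those of Egr1 were -1.54 and -1.24. All 3 Egr genes were at least 2-fold higher in both controls than in TDAG51-/-, whereas Phlda1 has no fold against TDAG51-/-Tg2. The fourth gene past 2-fold against TDAG51-/-Tg2 was Arc, a gene induced by synaptic activity, with -0.78 and -1.55. Fos, of the same response, was on the other side at 0.83 and 0.34.

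For Phlda3, the lists of its regulator and of its target were read. No gene of p53 and its targets passed 2-fold against TDAG51+/+, and 1 of 20 was lower against TDAG51-/-Tg2, beside 3.85% of all probes. That gene was the kinase Plk2, with log2 ratios of -0.92 and -1.15. Bax, which promotes the release of cytochrome c, had -0.86 and -0.45, and the receptor gene Eda2r had 0.45 and 0.05. The probe taken for the nuclease gene Aen had -0.63 and -0.14. It is placed on chromosome 4, and whether it reads Aen was not tested. The p53 list had medians of -0.11 and 0.11. None of the 16 genes of the PI3K-Akt pathway passed 2-fold against TDAG51+/+. Gsk3b, a kinase that Akt inhibits, was 0.44 lower there on the log2 scale. Against TDAG51-/-Tg2 it was 1.03 lower and alone of the 16 passed 2-fold, beside 3.85% of all probes. Pdpk1, the kinase that activates Akt, had 0.57 and 0.06, and Inpp5d, a lipid phosphatase gene, had -0.48 and -0.36.

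For Phlda2, imprinted genes were read. In the list of distal chromosome 7, which holds the imprinted cluster of Phlda2, 1 of 16 was 2-fold higher against TDAG51+/+, beside 4.9% of all probes, namely Th, the rate-limiting enzyme of dopamine and noradrenaline synthesis. Th had intensities of 2779 in TDAG51-/- and 1619 in TDAG51+/+, and of 2820 and 691.1 on array 2, at log2 ratios of 1.01 and 2.24. The first of these was just past 2-fold and was no longer past it with median centring or without normalization. Against TDAG51-/-Tg2, Th was again higher, and Tspan32, a tetraspanin gene, was lower at -1.09. Kcnq1ot1, the noncoding RNA that silences the cluster on the paternal chromosome, had ratios of 0.86 and 0.64. Cdkn1c, a cell cycle inhibitor expressed from the maternal allele like Phlda2, had 0.76 and 0.21, and the potassium channel gene Kcnq1 had -0.78 and 0.20. Of imprinted genes elsewhere, none of the 19 detected passed 2-fold against TDAG51+/+, and against TDAG51-/-Tg2 Ddc, an enzyme gene of the same pathway as Th, was higher at 1.30 and Nnat lower at -1.10. Against TDAG51+/+ and TDAG51-/-Tg2 in turn, Rasgrf1 stood at -0.66 and -0.38, Ndn at -0.60 and -0.75, Nnat at -0.59 and -1.10, and Dlk1 at 0.54 and -0.12.

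The remaining lists stayed mostly within 2-fold. No ER stress gene of 15 passed it on either array. Asns, which makes asparagine, had -0.89 and -0.15, Edem1 0.80 and 0.28, Trib3 -0.70 and -0.25 and Chac1 -0.34 and 0.24. Of 13 other genes with pleckstrin homology domains, none passed it against TDAG51+/+. Against TDAG51-/-Tg2, 1 of 12 detected, Plekho1 at 1.06, was higher, beside 4.73% of all probes. Phldb2 had 0.93 and 0.54, Phldb1 0.64 and -0.01, Plekhf1 0.59 and 0.78, and Plekha2 -0.53 and -0.51. Housekeeping genes had medians of -0.04 and -0.03. The second of these is the value of Actb, which was saturated in TDAG51-/-Tg2, and other genes of this list were also saturated in the controls. Ppia was just past 2-fold lower against TDAG51+/+ and stood at -0.68 against TDAG51-/-Tg2, Gapdh at -0.56 and -0.52 and B2m at -0.04 and -0.33.

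**Figure D4:**
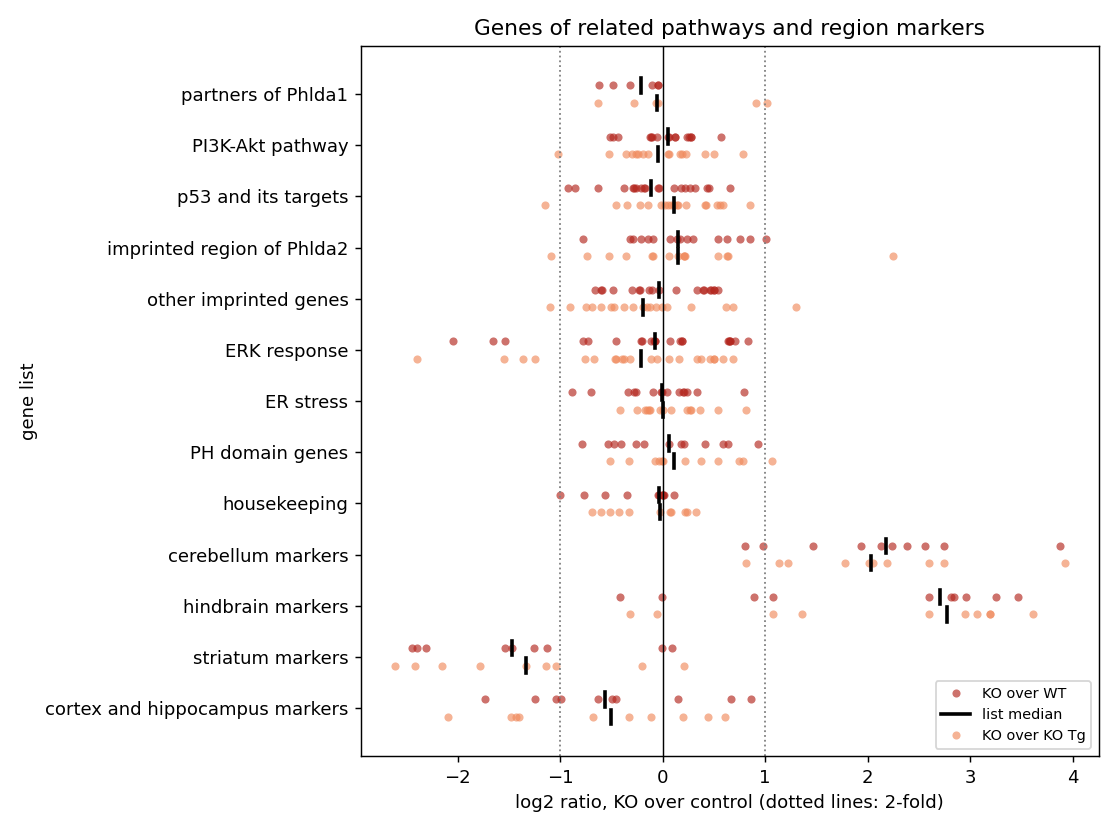
Log2 ratio of TDAG51-/- over TDAG51+/+ and over TDAG51-/-Tg2 for each detected gene of the 9 pathway lists and of 4 lists of brain region markers; black ticks are list medians and dotted lines mark 2-fold. Medians of the pathway lists stay between -0.21 and 0.15, while those of the cerebellum markers are 2.18 and 2.03 and those of the striatum markers -1.47 and -1.33.

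Genes next to the members on the chromosome were read within 300 kb of each probe. Around Phlda1, 6 of 7 genes were detected on each array and none passed 2-fold. Their log2 ratios ran from -0.41 to 0.87 against TDAG51+/+ and from -0.75 to 0.70 against TDAG51-/-Tg2. The ratios of Nap1l1, a nucleosome assembly gene 10.2 kb away, were -0.20 and -0.19, those of Osbpl8 were -0.29 and -0.73, and those of Bbs10 were -0.41 and 0.61. Around Phlda2, 15 of 17 were detected, and the transcript AK039482 alone passed 2-fold against TDAG51+/+, at 1.10, with 0.29 against TDAG51-/-Tg2. Slc22a18, an imprinted transporter gene of the cluster 25.3 kb away, had 0.17 and -0.73, and Nap1l4, 12.1 kb away, was saturated in the controls and has no fold. The neighbour Cars, a tRNA synthetase gene, had -0.18 and -0.27.

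Around Phlda3, 2 of 7 detected genes were at least 2-fold lower against TDAG51+/+ and none of 8 against TDAG51-/-Tg2, beside 4.42% and 3.85% of all probes. Pkp1, a desmosome gene 102.6 kb away, had 63.6 in TDAG51-/- and 355.3 in TDAG51+/+ on array 1, at 4.67-fold lower, and 64.5 and 58.1 on array 2. LOC215714 had log2 ratios of -1.56 and -0.45. Csrp1, which is 17.3 kb from Phlda3 and encodes a LIM domain protein, had 0.30 and 0.76, whereas the troponin genes Tnni1 and Tnnt2 had -0.62 and -0.73 against TDAG51+/+.

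Likeness to a member was measured as the Euclidean distance over the 4 normalized channel levels, each probe centred on its own mean. For Phlda3, the nearest of 33256 probes were those of Rhoj (distance 0.05, log2 ratios 0.73 and 0.88), Pou4f1 (0.07), Stx8 (0.07), Gzf1 (0.09) and Extl2 (0.10). With 4 channels and 1 array each, such likeness is a description of these samples. For Phlda1, near background on array 2, 35006 probes detected in at least 1 of the 4 channels were compared. The nearest were NAP054413-1 (distance 1.37), Zfp956 (2.19), Rai1 (2.19), Clic4 (2.30) and Slc25a24 (2.34). Rai1, for example, had an intensity of 12387 in TDAG51+/+ against 234.8, 190.4 and 300.4 in the other channels. Brightness in TDAG51+/+ alone was thus not confined to Phlda1. No likeness is given for Phlda2, which was near background throughout.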

How the data were processed

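RNA of whole brain was measured on 2 two-colour Agilent whole mouse genome arrays. The authors extracted and deposited, with Feature Extraction 9.5.3.1, each spot's mean intensity and local background, and a dye-normalized, background-corrected log10 ratio, Cy5 over Cy3, with its error. They also deposited a table of log2 ratios, Cy3 over Cy5. The latter differed from the scanner ratio by a median of 0.0059 and 0.0058 (log2).

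Here, normexp (offset 50) and loess within arrays (limma 3.58.1, R 4.3.3) were applied, with Aquantile for levels across arrays. Control spots had no weight in the loess, and 375 and 300 outlier spots were left out. Median intensities were 338.2 (Cy3) and 363.8 (Cy5) on array 1 and 336.1 and 385.0 on array 2. In 245 probes with at least 5 spots, the median SD between spots was 0.06 on each array (log2). The number of arrays limits the precision. Ratios are TDAG51-/- over the control. A probe counts if well above background in at least 1 channel, and called means past 2-fold, the fold threshold of the study. In its results the paper also gives a p-value limit and takes both comparisons together, which was not done here. The 95% range is 1.96 scanner errors on each side of the ratio computed here. That error was estimated by the scanner software for its own ratio. Tables were made with Python 3.11.15.

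Of 41174 probes, 32737 were matched to a gene in RefSeq tables (GRCm38.p6, names only) and 8437 kept the name of the file. Named were the members, some of the genes within 300 kb, the 5 most like Phlda1 and the 5 most like Phlda3. Up to 4 genes of each list were named, with the largest ratio against TDAG51+/+ among those detected on both arrays and not saturated. Other genes past 2-fold, and Actb, were named after their values were seen. A few genes and sequences are not reported here, and the counts include these genes. Members and lists were chosen with earlier results of these data known.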

Additional observations from a re-analysis of the deposited data

How the results depend on the processing

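The Phlda1 ratio against TDAG51+/+ moved by less than its scanner error under the alternatives, at -4.31 with offset 0, -4.40 by the scanner, -4.17 with median centring, -4.33 without normalization and -4.39 in the deposited table. Phlda3 was above 0 and under 2-fold in all of them, but without normalization its ratios moved to 0.43 and 0.63. Across arrays, offset 0 raised the bounds of Phlda1 to 8.40 (TDAG51+/+ over TDAG51-/-Tg2) and 4.28 (between the TDAG51-/- channels) on the log2 scale, since it leaves a lower floor.

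Counts of all probes past 2-fold depended on the processing. Against TDAG51+/+, 1694 were higher and 1527 lower. These became 3143 and 2653 with offset 0, 4024 and 3269 by the scanner, and 3907 and 3356 in the deposited table. Without normalization they were 1159 and 2854. Against TDAG51-/-Tg2, 1599 and 1303 became 2959 and 2248, 3793 and 2753, 3563 and 2907, and 935 and 2943 in the same order. Median centring gave 1656 and 1943, and 1459 and 1791.

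In the 9 lists, 1 gene was higher against TDAG51+/+, which became 0 with median centring or without normalization and 2 when a gene took the median of its probes. The 4 lower genes became 7 with offset 0, 9 with median centring and 14 without normalization. Against TDAG51-/-Tg2, the 4 higher genes became 7 by the scanner and in the deposited table and 2 without normalization, and the 8 lower ones became 21 without normalization. The causes were not tested.

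No paired analysis was possible because each comparison had 1 array, and no replicate was there to leave out. Phlda1 on array 2 and Phlda2 on both were limited by signal over background and have no value under any of them. The offset draws the ratios of dim probes toward 0, which affects the dim TDAG51-/- channel of Phlda1.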
